A study of Rattus norvegicus with 12 samples.

Results

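The change from post-natal day 21 (p21) to p60 was examined in the whole retina of the immunocompetent Royal College of Surgeons (RCS) rat, a strain whose photoreceptors degenerate after birth. The 6 libraries with the genotype label RCS-p+ and the words WT and male in their titles were taken, out of 12 in the series. In these titles WT stands where those of the other line have athymic. These were 3 libraries of p21 (library numbers 1, 2 and 3) and 3 of p60 (19, 20 and 21). The other 6 libraries, labelled RCS-p+/Foxn1mu and female, were those of the athymic line at the same ages and were used only for comparison. Poly(A) RNA was sequenced, and reads were counted per gene. The rats were untreated. Both ages carried the strain's defect and there was no library of a rat without it, so that the change with age in a degenerating retina cannot be told apart from the change with age that a normal retina would show. The labels did not say whether each library was a separate animal, so the p-values below measure the spread between these libraries, which may be technical.

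In the RCS rat, loss of the receptor tyrosine kinase Mertk leaves the retinal pigment epithelium unable to take up the outer segment membrane that rods and cones shed. Debris collects beneath the retina, rods and then cones die, Müller glia become reactive and microglia move into the outer retina. Rods are the most numerous cells of a rodent retina, rich in messenger RNA for the proteins of phototransduction and in mitochondria. In RNA of whole tissue, fewer cells of a type and less RNA in each cell cannot be told apart.

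Genes were listed in the deposited files by Ensembl identifier, Rnor_6.0 position and exons, with no symbol. None of the 32883 identifiers could be paired with a symbol from the reference table at hand. The glial, photoreceptor, immune and lipid genes, Mertk itself and the markers of retina and of other tissues were therefore not analysed here by name, and the label "whole retina" was not checked against markers. Genes are described below by position, level, structure and change.

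Sequencing depth did not separate the ages. The p21 libraries held 13896659, 15759938 and 13852516 counts and the p60 libraries 14163643, 14735305 and 15129214 counts, and genes with a count numbered between 19600 and 20248 in the 6 libraries. Across log2 normalized CPM (counts relative to library size, with the size scaled for composition), pairs of libraries of one age had a Pearson correlation of 0.979 to 0.993 over genes (6 pairs) and pairs of different ages 0.941 to 0.957 (9 pairs). Genes are not independent replicates. Some libraries stood apart from others of their age. Library 3 had 238.8 CPM in 3 X-linked genes that were chosen, from the other libraries, for being high where Y-linked counts were low. The other 5 immunocompetent libraries held 3.74 to 7.87 CPM of these genes, while Y-linked counts were 229.2 CPM in library 3 and 250.8 to 323 CPM in the other 5. Library 19 was high in a set of 183 genes, and libraries 2 and 3 in a set of 83 genes, both described at the end. In the athymic line, labelled female, libraries 4, 5 and 22 held 269 to 328 CPM of Y-linked counts, as in the males, against 8.79 to 23.2 CPM in the other 3. What set these libraries apart was not tested.

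About as many genes were called changed between p21 and p60 as were not. Of 15412 genes kept by the filter on low counts and tested with edgeR's quasi-likelihood test, 7916 (51.4%) had a Benjamini-Hochberg adjusted p under 0.05 and are called below. Without the filter, 33.8% of 23415 genes were called, with DESeq2 48.4%, and with any library left out 41.8% to 48.0%. Rises and falls were close in number, with 3945 genes (25.6%) called higher and 3971 (25.8%) called lower at p60. This balance rests on the scaling for composition. With total counts alone, which moved the median log2 fold change of all tested genes from 0.01 to 0.20, 5873 genes were called higher and 2379 lower. The groups did not overlap in normalized CPM in 60.3% of the tested genes, and of the called genes 7775 had no overlap between the 3 p21 and the 3 p60 libraries while 141 did.

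Most changes were small. In size, the log2 fold change of the called genes had a median of 0.62, with 10% of them under 0.28 and 10% over 1.52, beside a median standard error of 0.11 over all tested genes. A log2 fold change under 0.5 in size was seen in 2970 called genes and one of 0.5 to 1 in 3125. At least a 2-fold rise was called in 884 genes (5.74%) and at least a 2-fold fall in 937 (6.08%). Large falls outnumbered large rises, with 273 genes (1.77%) at least 4-fold lower and 123 (0.798%) at least 4-fold higher. With total counts alone, 202 were at least 4-fold lower and 168 at least 4-fold higher, while at 2-fold 698 were lower and 1518 higher. Past 8-fold the numbers were closer, with 33 genes lower and 27 higher. The 7496 genes that were not called had a lower level (median log2 CPM 3.93 against 5.24 in the called genes) and a larger standard error (median 0.14 against 0.10).

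**Figure D1:**
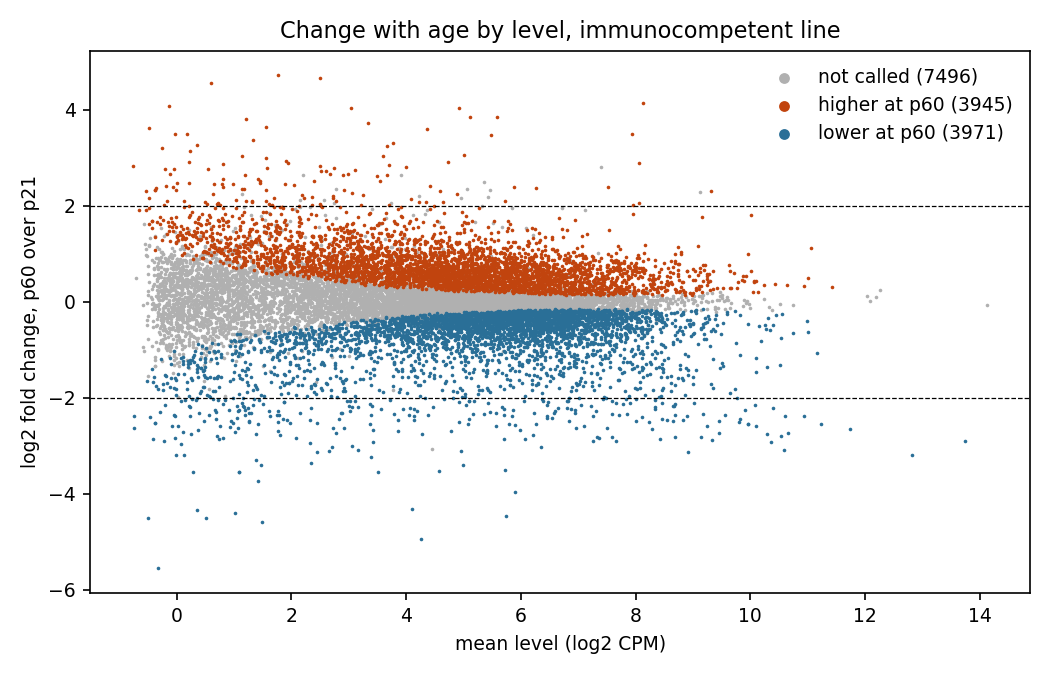
Log2 fold change from p21 to p60 (vertical axis) against the mean level in log2 CPM (horizontal axis) for the 15412 genes tested in the immunocompetent line, with 3 libraries at each age. Each point is a gene, colours mark the calls at an adjusted p under 0.05 and dashed lines mark a 4-fold change; below -2 on the vertical axis points run to the highest levels, above 2 they lie mostly at low levels.

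The imbalance among 4-fold changes was widest in the highly expressed genes, although falls outnumbered rises at every level. At a mean log2 CPM of 6 or more, 96 genes were called at least 4-fold lower and 8 at least 4-fold higher. Between 4 and 6 the numbers were 43 and 16, between 2 and 4 they were 39 and 34, and below 2 they were 95 and 65. For 2-fold changes the direction turned over with level, from 325 lower and 61 higher among genes at 6 or more to 251 lower and 348 higher among genes below 2. The mean level here was taken over the same libraries as the change, so genes were next ranked by their counts in the 3 athymic p21 libraries, which had no part in the comparison.

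Most of the most abundant transcripts of the p21 retina fell. Of the 20 nuclear genes with the most counts in the athymic p21 libraries, 18 were called lower at p60 in the immunocompetent line, 1 higher, and 1 was not called. Over all genes tested, 25.8% were called lower and 25.6% higher. The share of all counts held by these 20 genes was 8.68%, 7.73% and 7.06% in the p21 libraries and 2.59%, 2.25% and 2.22% in the p60 libraries, from 7.83% ± 0.811 to 2.35% ± 0.205 (SD, n = 3). All p21 values lay above all p60 values. The fall thinned out down the ranks of this p21 ordering. Among ranks 21 to 100, 53 of 80 genes were called lower and 11 higher (median log2 fold change -0.60), and among ranks 501 to 2000 there were 716 lower and 323 higher of 1500 (median -0.16). At ranks 5001 to 10000 the direction had turned, with 1443 higher and 1185 lower, and at ranks 10001 to 15000 there were 1255 higher and 560 lower of 4830 tested, at a median of 0.23. Ranked instead by the athymic p60 libraries, the 20 most counted nuclear genes split into 7 higher, 8 lower and 5 not called. Only 8 genes were in both top 20 lists. Further down the p60 ranking the pattern differed. Ranks 21 to 100 had 35 genes called higher and 21 lower, and ranks 501 to 2000 had 475 and 543. Ranks 5001 to 10000 had 1369 and 1349, and ranks 10001 to 15000 had 1013 and 750. The excess of falls at the top ranks thus depended on the age used for ranking. A ranking at p21 favours genes high at that age, and with them falls, and one at p60 favours rises.

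The largest transcript pool came from a 5-exon gene at chr4:147832136-147837298 (Rnor_6.0). Its level was 29617, 23870 and 18886 normalized CPM at p21 and 3454, 3231 and 2985 at p60. The 3 p21 values were all more than 5 times the highest p60 value, and library 3 was the lowest of its age. The log2 fold change was -2.90 ± 0.155 (SE, n = 3 each; adjusted p = 7.07e-07, edgeR), a 7.48-fold lower mean. At p21 this gene alone held 2.24% ± 0.445 of all counts (SD, n = 3). At p60 the nuclear gene with the most counts, whichever it was in each library, held 0.350% ± 0.0196. The gene at rank 2, chr8:116433302-116438038, has exons that overlap another gene, so that its counts are less certain. It measured 15421, 12748 and 11062 normalized CPM at p21 and 1532, 1515 and 1240 at p60 (log2 fold change -3.19 ± 0.139, SE), the steepest fall among the 20.

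The 12 of the 20 that fell by 4-fold or more were spread over 10 chromosomes and had 3 to 23 exons. Their log2 fold changes ran from -3.19 to -2.22, all with an adjusted p of at most 7.07e-07. Together the 12 held 7.10%, 6.28% and 5.54% of counts in libraries 1, 2 and 3 and 1.07%, 1.05% and 0.973% in libraries 19, 20 and 21. Their levels moved together between the p21 libraries. Library 1 was the highest of its age in 11 of the 12 and library 3 the lowest in 10, while at p60 library 21 was the lowest in 8. The other 6 falls were between -1.32 and -0.26. The riser, at chr13:71331052-71340229, went from 2569, 2467 and 2332 to 2760, 3270 and 3099 normalized CPM, a log2 fold change of 0.31 ± 0.0795 (SE, adjusted p = 0.00967), with no overlap between the ages. The gene without a call, at rank 10 and chr20:10438444-10442187, had 685, 1385 and 5499 counts at p21 and 41125, 727 and 223 at p60. Library 19 alone was high, and this gene is one of the 183 that mark that library.

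**Figure D2:**
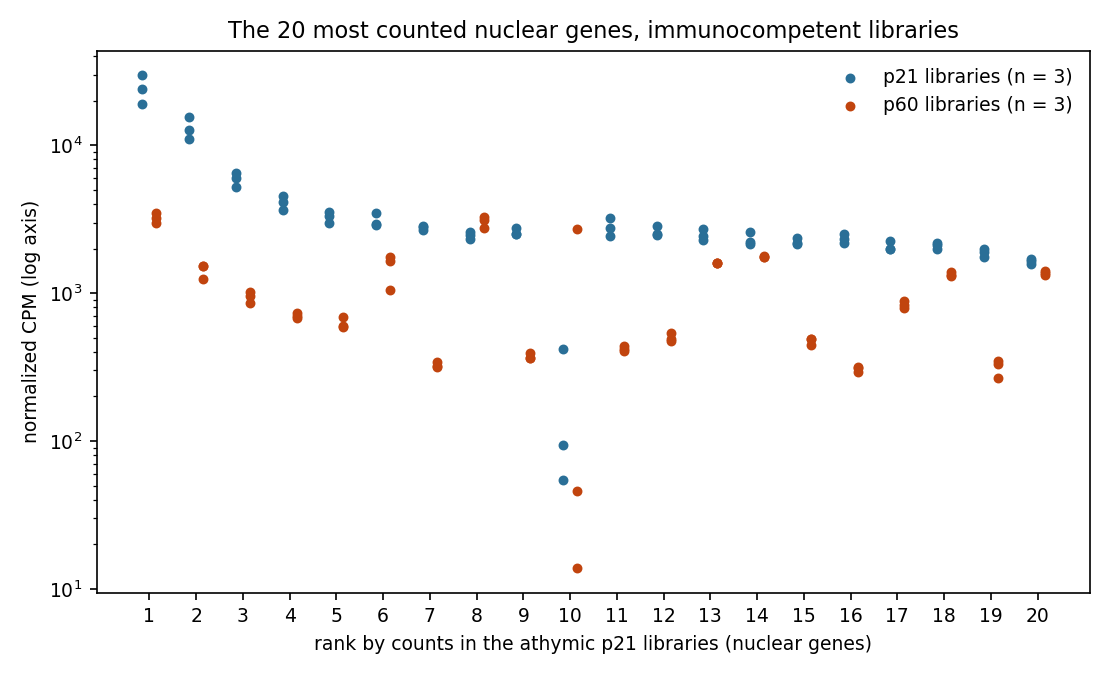
Normalized CPM (log axis) in each immunocompetent library for the 20 nuclear genes with the most counts in the athymic p21 libraries, in rank order; blue points are the 3 p21 libraries and orange points the 3 p60 libraries. The blue points lie above the orange ones in the 18 genes that were called lower, the gene at rank 8 is reversed, and at rank 10 a single p60 library is high.

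Fewer genes made up the bulk of the RNA at p21. Between 1011 and 1125 genes were needed to reach 50% of counts at p21, and between 1356 and 1374 at p60. The 100 most counted genes of each library held 19.7% ± 1.41 of counts at p21 and 15.0% ± 0.240 at p60, and the 10 most counted nuclear genes 5.99% ± 0.781 and 2.24% ± 0.0856 (SD, n = 3). The composition factor that edgeR's TMM method gave each library was 0.934 ± 0.0230 at p21 and 1.07 ± 0.00242 at p60. In each of these measures the ages did not overlap. An exact two-sided permutation test gave p = 0.1, the smallest that 3 libraries against 3 allow, and 0.133 after adjustment over 8 comparisons of library measures. The same exact test gave p = 0.8 for total counts and 0.9 for genes with a count.

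Among single genes, the largest changes passed 20-fold in both directions. Identifiers are given for 2 rises and 2 falls, the largest among called genes whose mean log2 CPM was 1 or more and whose ages did not overlap. ENSRNOG00000036942, a 9-exon gene at chr5:168009393-168035810, had 2, 1 and 6 counts at p21 and 114, 61 and 111 at p60 (log2 fold change 4.72 ± 0.501, SE, adjusted p = 5.90e-05). ENSRNOG00000010478, with 22 exons at chr6:127941526-128080889, had 4, 4 and 8 counts at p21 and 162, 69 and 255 at p60 (4.67 ± 0.547, adjusted p = 0.000107). That the ages did not overlap in these genes was a condition of their choice. In both rises the p60 values spread widely and the p21 values were only a few counts. ENSRNOG00000019183, with 14 exons at chr10:56953691-56962161, went from 72, 76 and 68 counts to 2, 5 and 3 (-4.60 ± 0.327, adjusted p = 4.77e-06). ENSRNOG00000012134, with 25 exons at chr10:94505026-94557764, went from 1343, 1541 and 1280 counts to 69, 101 and 47 (-4.47 ± 0.207, adjusted p = 2.77e-07). The last of these was well expressed at p21, at 102.5 ± 5.02 normalized CPM against 4.62 ± 1.74 at p60 (SD, n = 3). No exon of the 4 overlaps another gene's, and all 4 were called in the same direction in the athymic line, with log2 fold changes of 3.97, 4.88, -3.82 and -4.79. Of all 15225 genes tested in both lines, 6155 were called in both with the same sign.

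The 10 largest rises by the same conditions had log2 fold changes of 3.64 to 4.72 and lay on 8 chromosomes. All 10 were also called higher in the athymic line, where 3923 of all 15507 genes tested were called higher and 3817 lower. Chosen after its values were seen, the one with the highest level at p60 lay at chr10:90990762-90999506, where normalized CPM went from 26.1, 39.2 and 24.8 to 490.8, 426 and 674.7. Another, at chr3:11414186-11417546, had 3.09, 3.73 and 3.33 at p21 but 11.5, 7.35 and 149.5 at p60, so that its size rests on library 21 (log2 fold change 4.05, adjusted p = 0.0123). The 10 largest falls, of 3.52 to 4.60 on the log2 scale, were less uniform. In the athymic line 7 were called lower and 3 were called higher. Those 3 belong to the set of 83 genes described at the end, as does 1 of the 7; at chr15:52211544-52214616, for example, normalized CPM was 13.6, 167.2 and 155 at p21 and 5.47, 5.45 and 10.5 at p60, so that libraries 2 and 3 carried the p21 level.

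Few genes went from absent to present. Of 23415 genes with a count in the 6 libraries, 2 had 0 counts in all p21 libraries and at least 5 in every p60 library, and 1 the reverse, with at most 17 and 8 counts in any library.

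Calls were more frequent in genes with more exons and longer exonic sequence, which also had higher levels. Genes with a single exon (1056 tested, median log2 CPM 1.88) were called higher in 17.8% and lower in 18.8%, and genes with 21 exons or more (median 5.90) in 28.9% and 33.1%. Single-exon genes nevertheless had the largest share of 2-fold falls, with 106 falls against 54 rises (5.11%). Genes of at most 300 exonic bases were called in 8.43% (higher) and 14.4% (lower), and those over 8000 bases in 34.3% and 30.8%. Genes whose exons overlap those of another gene, for which reads may be lost or shared in the counting, were 8.58% of tested genes and 7.90% of called genes.

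Called genes were found on every chromosome, with 43.5% of tested genes called on chromosome 19 and 56.2% on chromosome 17 at the ends of the autosomal range. Chromosome 4 had the highest share of genes called higher (31.1% of 846) and chromosome 6 the highest share called lower (30.1% of 697) of the autosomes. Windows of 20 consecutive tested genes were scanned for 2-fold changes and the extremes are given as a description, with no test. The window richest in rises was chr4:153774486-157123446, with 9 of 20 genes at least 2-fold higher (log2 fold change 1.03 to 2.95). Next came chr20:3705292-4132616, with 8 genes higher by 1.24 to 4.03 on the log2 scale and 1 lower. Chromosome 20 carries the major histocompatibility complex of the rat, a cluster of immune genes. The 8 genes were at 0.0768 to 8.31 normalized CPM at p21 and 1.01 to 64.1 at p60. Each had every p60 library above every p21 library, but 7775 of all 7916 called genes likewise had no overlap between the ages. Of the 8, 3 have exons that overlap another gene's. The 7 that could be tested in the athymic line were all called higher there, where 49.9% of all genes were called in either direction. Falls were densest at chr17:76532611-78912418, with 9 of 20 genes lower, at log2 fold changes of -2.75 to -1.21, and 8 of the 9 also called lower in the athymic line. At chr10:94388430-95212111, the window that holds ENSRNOG00000012134, 8 of 20 were at least 2-fold lower. A further 8 fell at chr20:2020309-3162939, close to the window of rises on the same chromosome, but only 1 of the 5 tested in the athymic line was called lower there.

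The share of counts from the mitochondrial genome was higher at p60. This small circular genome encodes subunits of the respiratory chain, ribosomal RNAs and transfer RNAs, and most of its messenger RNAs carry short poly(A) tails. Its share was 4.43%, 4.32% and 3.53% at p21 and 5.02%, 4.81% and 5.27% at p60. The ages did not overlap, and library 3 was the lowest. The means were 4.09% ± 0.488 and 5.04% ± 0.228 (SD, n = 3), a difference of 0.942 percentage points and a ratio of 1.23. The exact permutation test gave p = 0.1, the smallest possible here, and 0.133 after adjustment over the 8 measures. A share depends on what else is in the library, and the most counted nuclear genes took less of the p60 libraries. With the 100 most counted nuclear genes of each library left out, the share was 4.91% ± 0.631 at p21 and 5.65% ± 0.254 at p60, still without overlap, with a difference of 0.745 percentage points. With the 20 nuclear genes ranked in the athymic p21 libraries left out, the difference was 0.712.

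Gene by gene, the mitochondrial rise was uneven. Of 37 mitochondrial genes, 23 were tested, 8 were called higher (34.8%, beside 25.6% of all genes tested) and 0 lower by edgeR. All 8 were among the 15 genes of at least 200 bases, which held 99.8% of mitochondrial counts. The 22 shorter genes held 0.171%, and 0 of the 8 tested were called. Calls went by position along the genome. Each of the 4 long genes between bases 68 and 4942 was called higher, each of the 6 from 5323 to 9798 was not, and of the 5 from 9870 to the last the first 4 were called higher. The 5 genes with the most counts, 81.1% of mitochondrial counts at p21 and 77.2% at p60, were all among those not called, with log2 fold changes of -0.07 to 0.25. The other 10 long genes, with 18.7% of mitochondrial counts at p21 and 22.7% at p60, had a median log2 fold change of 0.39 and held all 8 calls. Per length, the 8 called genes were at 268 to 1824 normalized CPM per kilobase at p21 and the 5 most counted at 3913 to 11884. The other 2 long genes without a call were at 694.5 and 3375, the first of them within the range of the called genes. Of the 8 calls, those at MT:2740-3694 and MT:9870-10166 were near the threshold (edgeR, adjusted p = 0.0363 and 0.0432). The position pattern holds for the scaling with TMM. With total counts alone 12 mitochondrial genes were called higher, 11 of them long, among them the genes at MT:7919-8599, MT:9451-9798 and MT:14136-15278.

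The gene with the most mitochondrial counts, at MT:5323-6867, had a mean of 18360 ± 2924 normalized CPM at p21 and 17446 ± 562 at p60 (SD, n = 3). Its log2 fold change was -0.07 ± 0.112 (SE, adjusted p = 0.606). The clearest rise was at MT:13543-14061, the only long gene on the minus strand, from 320.6 ± 3.58 to 458.4 ± 10.3 normalized CPM, a log2 fold change of 0.52 ± 0.0545 (SE, adjusted p = 5.78e-05). It overlaps its neighbour on the plus strand, and the strand setting of the counting is not given in the sources used here, so reads of the pair may not be told apart where they overlap. The first 2 genes, at MT:68-1025 and MT:1094-2664, rose from means of 490.8 to 716.4 and of 933.8 to 1254 normalized CPM (n = 3), log2 fold changes of 0.55 ± 0.0678 and 0.43 ± 0.0591 (SE). The largest rise among the called genes, 0.64 ± 0.183 at MT:10160-11537, also had the widest error of these. In the athymic line 8 long mitochondrial genes were also called higher, but not the same 8. There MT:14136-15278 was called (log2 fold change 0.18, edgeR adjusted p = 0.0086) and the second gene, MT:1094-2664, was not. For that second gene the values were 0.43 in the immunocompetent and 0.00 in the athymic line. This difference did not pass the test of the interaction (adjusted p = 0.207).

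**Figure D3:**
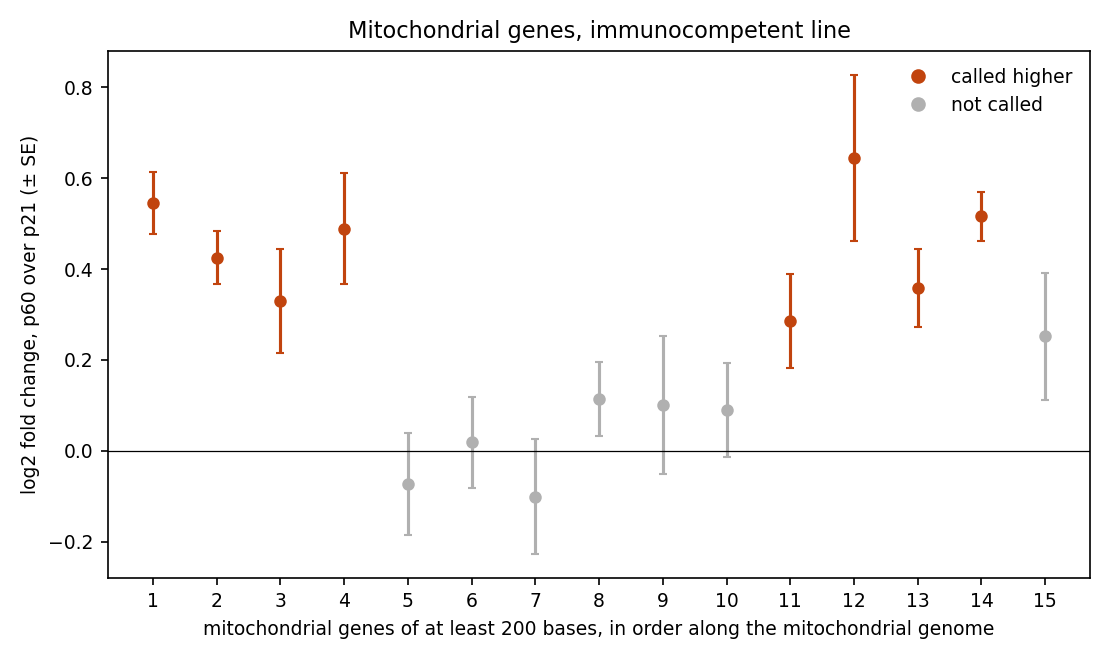
Log2 fold change from p21 to p60 with its SE for the 15 mitochondrial genes of at least 200 bases, numbered in order along the mitochondrial genome; orange marks an adjusted p under 0.05. Genes 1 to 4 and 11 to 14 were called higher, and genes 5 to 10, which lie between -0.10 and 0.11, and gene 15 were not.

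The change with age in the athymic line was set beside that in the immunocompetent line. No library is shared by the 2 comparisons, but line and labelled sex went together in all 12 libraries and cannot be told apart. Y-linked counts did not go with the label in athymic libraries 4 and 5 (p21) and 22 (p60), at 269 to 328 CPM. The athymic line had 7740 of 15507 genes called (49.9%). Of 15225 genes tested in both lines, 6155 were called in both with the same sign and 44 with opposite signs. Of 163 genes called in the athymic line with a log2 fold change between -3 and -2, 157 were tested in the immunocompetent line, where 154 were called lower and 0 higher, with medians of -2.31 (athymic) and -2.45 (immunocompetent). Past -3 in the athymic line 24 were tested, and 13 were called lower and 1 higher. Of 123 tested genes called in the athymic line with a value between 2 and 3, 82 were called higher and 11 lower. The 12 abundant genes that fell by 4-fold or more had athymic values of -2.89 to -2.01, and each fitted fall was larger in the immunocompetent line. The 12 were chosen by the size of their fall in the immunocompetent line, which favours a larger fall there. Their levels also moved together between libraries, so they are not independent. The difference between the lines passed the interaction test for none of the 12 (edgeR, adjusted p = 0.205 to 0.694, n = 3 each).

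The interaction of age and line was called for 1 of 16069 genes (0.00622%), with 1494 at an unadjusted p under 0.05 and 146 called by DESeq2. This 3-exon gene, at chr1:229003961-229019527, had 85, 89 and 61 counts at p21 and 157, 132 and 134 at p60 in the immunocompetent line. In the athymic line it had 112, 90 and 127 at p21 and 18, 8 and 15 at p60. The ages did not overlap in either line, and the directions were opposite. The log2 fold change was 0.64 ± 0.187 (SE, adjusted p = 0.0181) in the immunocompetent line and -3.19 ± 0.279 in the athymic line, an interaction of -3.82 ± 0.330 (adjusted p = 0.00054).

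**Figure D4:**
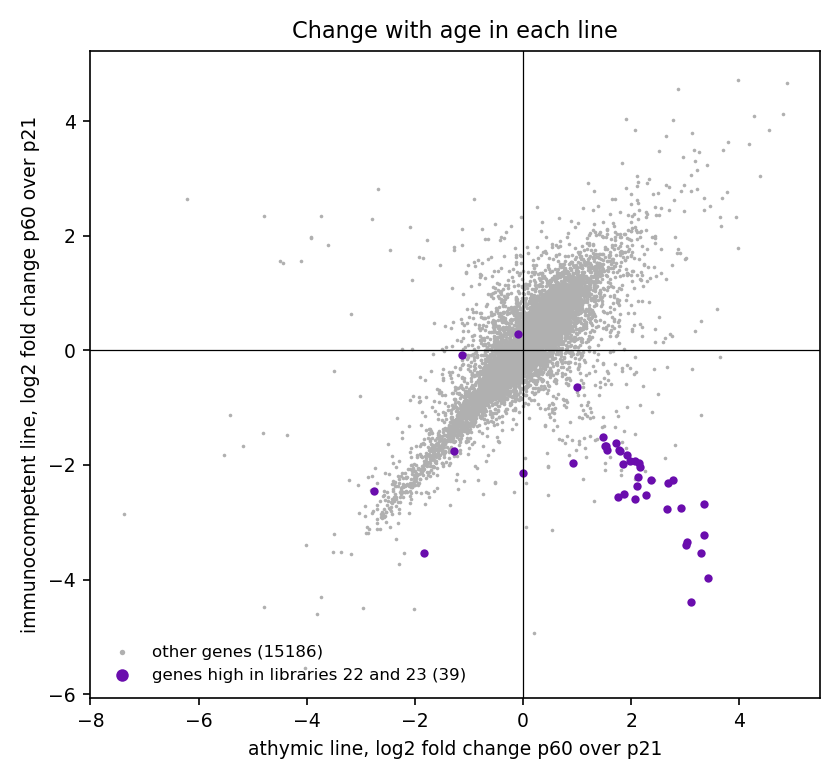
Log2 fold change from p21 to p60 in the immunocompetent line (vertical axis) against that in the athymic line (horizontal axis), with a point for each gene tested in both and 3 libraries per age and line. Most points follow the diagonal, and the purple points, members of the 83-gene set that is high in athymic libraries 22 and 23, lie mostly at lower right, where the lines differ in direction. These genes were chosen for high levels in those athymic p60 libraries, which favours a position to the right.

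Some of the largest differences between the ages moved with single libraries. A set of 83 genes on 23 chromosomes was defined in the athymic p60 libraries alone, as genes at least 4 times higher in libraries 22 and 23 than in library 24 and at 1 CPM or more. In the immunocompetent line their summed level was 219.5, 796 and 745 CPM at p21 and 166, 162 and 159 CPM at p60. Libraries 2 and 3 were the high ones, library 1 was near the p60 libraries, and in 65 of the 83 genes libraries 2 and 3 were each at least 2 times the other 4. Of the 48 members tested, 37 were called lower, 0 higher and 24 at least 4-fold lower, at a median log2 fold change of -2.01 beside 0.01 over all genes. Over all genes tested, 25.8% were called lower, 25.6% higher and 1.77% at least 4-fold lower. The median over the 83 genes was 3.43 and 3.03 CPM in libraries 2 and 3 and 0.43 to 0.64 CPM in the other 4. The filter on low counts could thus favour members high at p21, and with them falls. In the athymic line 46 members were tested, with 20 called higher and 3 lower, at a median of 1.93. Of all 15507 genes tested there, 3923 were called higher and 3817 lower. Members were chosen for high levels in athymic p60 libraries 22 and 23, which favours a rise there. The set holds 18 of the 44 genes called in opposite directions in the lines, a count that the same choice favours. In 31 of the 44, libraries 2 and 3 were at least 2 times the other 4 immunocompetent libraries. Without the set, 249 genes in place of 273 were at least 4-fold lower and the 123 at least 4-fold higher stayed in number. The part of these libraries in the remaining changes was not tested.

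Library 19 carried a second set, 183 genes at least 4 times higher in it than in libraries 20 and 21. They summed to 12046 CPM, or 1.20% of counts, in library 19 and to 742 and 626 CPM in the other p60 libraries. The p21 libraries held 868, 923 and 2194 CPM. Of the 123 members tested, 3 were called, all higher, beside 51.4% called over all genes; members were chosen for a wide spread within p60. Without the set 121 genes were at least 4-fold higher and 273 lower. With libraries 3 and 19 both left out, 7553 genes were called, 3792 higher and 3761 lower, with 141 at least 4-fold higher and 283 lower.

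**Figure D5:**
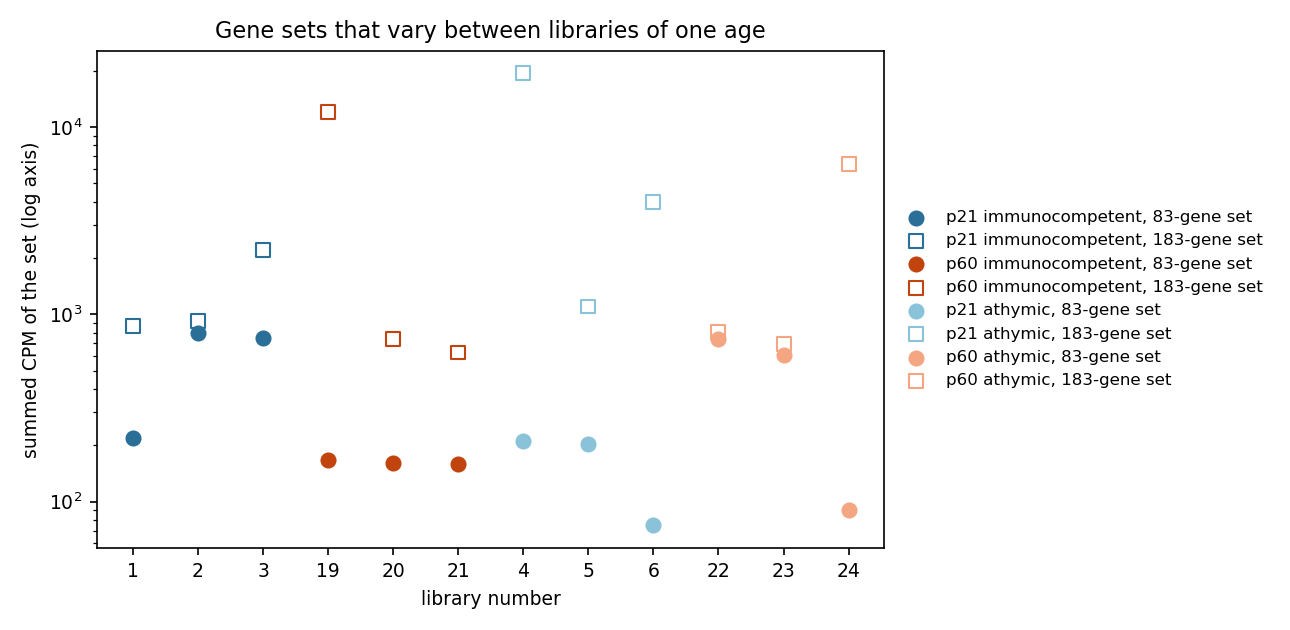
Summed CPM (log axis) of the 83-gene set (filled circles) and of the 183-gene set (open squares) in each of the 12 libraries, coloured by age and line. Among the immunocompetent libraries the circles are high in 2 and 3 (796 and 745 CPM) and lie between 159 and 219.5 CPM in the other 4, and the square of library 19 stands at 12046 CPM.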

How the data were processed

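Reads of poly(A)-selected whole-retina RNA were mapped by the authors with STAR 2.5.2b and counted per gene with featureCounts (Subread 1.5.2) on Rnor_6.0, per the submitters' processing notes. The values deposited are raw counts, 1 file per library. The strand setting and the treatment of reads with several positions are not given in the sources used here, so genes that share sequence or exons with another are uncertain. Each immunocompetent library held 13852516 to 15759938 counts.

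From these counts, the 6 immunocompetent libraries were fitted alone with edgeR 4.0.16 in R 4.3.3: filterByExpr (minimum count 10, minimum total 15), TMM scaling and the quasi-likelihood test, p60 against p21, with Benjamini-Hochberg adjustment over all tested genes at 0.05. Standard errors were computed as the absolute log2 fold change over the square root of F. The athymic line was fitted alike, and the interaction of age and line over 12 libraries. Normalized CPM are CPM of the TMM-scaled library size. Single values per library were compared with an exact two-sided permutation test. Counts were simulated with 200 of 15412 genes changed. At a log2 fold change of 1, 149 were recovered, and at 2, 187, with 14 false calls each. For the athymic line (15507 genes) 148 were recovered at 1, and for the interaction (16069 genes) 114. The simulation changed a far smaller share of genes than the 51.4% called in the data, so its rates do not carry over to them.

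Genes named by identifier were the 2 largest rises and 2 largest falls among called genes whose mean log2 CPM was 1 or more and whose ages did not overlap, plus the mitochondrial genes and the gene with a called interaction, given by position. The members, lists and rules were chosen with earlier results of these data known. Lists of symbols for glial, photoreceptor, immune and lipid genes and for other cell types had been drawn up, but 0 of 32883 identifiers matched the table used for symbols (RefSeq, GRCr8), so they were not analysed here and no sequence is shown. The abundance ranks, windows and library sets were added after the data were seen. Alternatives were DESeq2 1.42.0, edgeR's RLE method in place of TMM, total counts alone, other filters, a shared spread, a minimum fold change and leaving out each library.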

Additional observations from a re-analysis of the deposited data

Results flagged for a closer look

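For 1 gene, at chr1:229003961-229019527, the test of the difference between the lines in their change with age was passed. The interaction was -3.82 on the log2 scale (edgeR, adjusted p = 0.00054), from a log2 fold change of 0.64 in the immunocompetent line and -3.19 in the athymic line, both called, with every library of p60 on the same side of the p21 libraries within each line. The fitted interaction lay between -4.04 and -3.55 when each of the 12 libraries was left out in turn and was -3.84 with DESeq2, called each time.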

How the results depend on the processing

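The immunocompetent count of 7916 called genes lay between 6548 and 7556 with each library left out in turn (3282 to 3763 higher, 3266 to 3809 lower), and was 7459 with DESeq2. Genes at least 4-fold higher then numbered 122 to 184 and at least 4-fold lower 265 to 359. With a minimum absolute log2 fold change of 1 the count was 1821 (884 higher, 937 lower), and 0 mitochondrial genes were left of the 8 called higher. With total counts alone 5873 genes were higher and 2379 lower. Without a filter on low counts, 200 genes were at least 4-fold higher and 434 lower; with at least 10 counts in every library, 62 were at least 4-fold higher. The interaction was called for 146 genes with DESeq2 and for 1 to 138 with each library left out: 138 without library 1, 92 without library 24 and 8 without library 6. With single libraries left out, mitochondrial genes called higher numbered 5 to 9 (5 without library 21), and with total counts alone 12. The difference in mitochondrial share was 0.662 to 1.11 percentage points with single libraries left out. Called falls among the 20 most abundant genes then numbered 18 or 19, with total counts alone 17, and with the minimum fold change 14. Athymic calls numbered 6484 to 7293. The 4 genes named by identifier kept their calls in each alternative that tested them; 3 were removed by the filter of 10 counts in every library. The causes were not tested. The share without rod genes and the gene lists were not run, for want of symbols. No paired analysis was possible because the libraries of the ages share no number in their labels. Intervals cover the spread of 3 libraries per age, and genes of few counts could change without a call.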
